A study of Mus musculus with 6 samples.

Results

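The 10 transcripts described here encode the machinery that brings glucose into the cell and carries it to lactate: the glucose transporter Slc2a1 (GLUT1) and the enzymes Hk2, Gpi1, Pfkl, Aldoa, Tpi1, Pgk1, Eno1, Pkm and Ldha. They were chosen by name, in pathway order, from the 16300 genes of the deposited table, and all 10 were measured. The cells were granulosa cells (GCs), the somatic cells that surround and nourish the oocyte in the ovarian follicle, isolated from wild type C57BL/6J mice aged 8 to 9 weeks and cultured as primary cells. RNA-seq libraries were made from 3 control cultures kept in medium and from 3 cultures given dihydrotestosterone (DHT) at 25 nM for 24 h, to ask how an androgen that cannot be aromatized to estrogen changes the GC transcriptome. Each sample pooled the GCs of several mice, so that the spread between libraries is a spread between pools. The sample labels name whole ovary as the extracted material and DHT in the treatment text of every sample, and the grouping used here follows the treatment characteristic, which separates control from DHT.

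Glycolysis converts glucose to pyruvate in the cytosol with a small yield of ATP, and lactate dehydrogenase then turns pyruvate into lactate while it restores the NAD+ that the pathway consumes. In the follicle this work falls largely to GCs, since the oocyte uses glucose poorly and is fed with pyruvate that GCs make. Several of these genes are textbook targets of hypoxia-inducible factor 1 (HIF-1), whose oxygen-sensitive subunit is encoded by Hif1a and which binds DNA at a core of the letters ACGTG. These letters were searched on both strands of RefSeq promoter windows (GRCm38.p6, 250 bases before to 50 after each annotated start). They stood in at least 1 window of 6 of the 10 members, which are Slc2a1, Hk2, Aldoa, Pgk1, Pkm and Ldha (60%), against 5886 of 27025 genes (21.8%). A window of Hk2, Pgk1, Pkm or Ldha held 2 or more separate stretches (4 of 10, 40%, against 3.06% of all genes). The windows of Gpi1, Pfkl, Tpi1 and Eno1 did not hold these letters, and Aldoa, Pkm and Ldha each also had a window without them. The shares over all genes take in every gene with a window, whether or not it was expressed in these cells. They were not matched to the members for base composition or for the number of windows, and a gene with more windows can match more often. The 250 bases before the start are shown for the members Ldha, Hk2 and Pgk1, whose windows hold several stretches, and for Bnip3, a mitophagy receptor gene and hypoxia target described further below. The search and the choice of these 4 sequences were made after the expression values had been seen. Capitals mark each stretch of matching letters, and they run to the 6 letters CACGTG, also the E-box that Myc and other factors bind, where matches on both strands overlap.
Ldha, chr7:46845554-46845803, plus strand: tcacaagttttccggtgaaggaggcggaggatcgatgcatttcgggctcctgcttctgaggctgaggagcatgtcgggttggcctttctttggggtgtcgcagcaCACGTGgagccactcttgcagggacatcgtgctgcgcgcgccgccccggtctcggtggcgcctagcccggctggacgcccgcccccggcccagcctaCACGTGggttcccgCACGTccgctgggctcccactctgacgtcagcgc
Hk2, chr6:82774455-82774704, minus strand: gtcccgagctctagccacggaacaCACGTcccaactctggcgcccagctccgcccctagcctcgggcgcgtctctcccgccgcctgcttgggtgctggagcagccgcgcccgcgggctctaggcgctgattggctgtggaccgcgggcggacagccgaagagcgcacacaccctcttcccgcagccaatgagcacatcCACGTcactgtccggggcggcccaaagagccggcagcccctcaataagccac
Pgk1, chrX:106186850-106187099, plus strand: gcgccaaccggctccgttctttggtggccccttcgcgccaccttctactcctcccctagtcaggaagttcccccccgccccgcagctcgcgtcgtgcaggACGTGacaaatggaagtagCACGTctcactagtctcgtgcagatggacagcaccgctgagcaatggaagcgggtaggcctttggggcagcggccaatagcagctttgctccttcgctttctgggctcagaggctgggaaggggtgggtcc
Bnip3, chr7:138909507-138909756, minus strand: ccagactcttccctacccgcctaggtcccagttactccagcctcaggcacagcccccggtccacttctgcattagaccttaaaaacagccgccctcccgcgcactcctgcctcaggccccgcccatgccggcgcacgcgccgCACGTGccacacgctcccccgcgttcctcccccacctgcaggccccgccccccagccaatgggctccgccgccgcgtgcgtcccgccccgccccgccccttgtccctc
The sequence of Ldha held 3 stretches in capitals, of which 2 were CACGTG, those of Hk2 and Pgk1 held 2 each, and that of Bnip3 held 1, a CACGTG. A match describes letters in these windows and not a bound site.

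Libraries held 38486526 to 41928585 reads on genes in the control group and 36111177 to 39777305 in the DHT group. The first principal component separated the groups and carried 41.2% of the variance. The summed normalized count (reads on a gene divided by the size factor of the library) of 8 of 9 granulosa markers was 198982 to 215198 in control and 213240 to 233018 in DHT libraries. Within this list Inha and Foxl2 were lower and Hsd17b1 and Cyp11a1 higher with DHT. Sums of 5 of 6 theca markers were 14073 to 15975 and 17743 to 20243, with Acta2 higher and the other 4 not past the test. The remaining granulosa and theca markers, Cyp19a1 and Cyp17a1, had no entry under those names among the 16300 genes. Sums of 4 of 5 endothelial markers (150.4 to 179 and 141 to 199) and of 3 of 5 leukocyte markers (228 to 255 and 182 to 243) were low in both groups, with Csf1r lower. The 5 erythroid markers had no entry under their names either. Sums of all 5 oocyte markers were 705, 269 and 272 in control and 484, 34.9 and 514 in DHT libraries, so that DHT replicate 2 stood apart, with Zp3 at 0 there. The part of these cell types in the values below was not tested. In cultures measured in bulk, fewer cells of a type and less RNA per cell cannot be told apart.

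Between control and DHT, none of the 10 transcripts rose or fell past the test, which was limma's moderated test on log2(normalized count + 1) with adjustment over the 16292 genes tested and a threshold of 0.05. Of all genes tested, 6.52% were higher and 4.66% were lower with DHT by the same rule, and 1.31% also had an absolute log2 fold change above 1. Without adjustment, 3 members, Slc2a1, Pfkl and Pkm, had a p of at most 0.05 and a positive difference, and 0 a negative one, while 2186 and 1915 of all genes did. Log2 fold changes ran from -0.06 for Pgk1 to 0.19 for Slc2a1, with 8 of 10 above 0, beside 7955 of the 16292 genes tested, and a median of 0.09 beside -0.01 over all genes. With a library left out, 7 to 9 of 10 were above 0, and under quantile normalization 7 of 10 were above 0 and the median was 0.07. The 95% intervals of the 10 differences, not adjusted for their number, all lay between -0.17 and 0.34 on the log2 scale. Each interval thus ended below the log2 fold change of 1 that the study required of its differential genes, which does not show that a gene stayed the same.

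**Figure D1:**
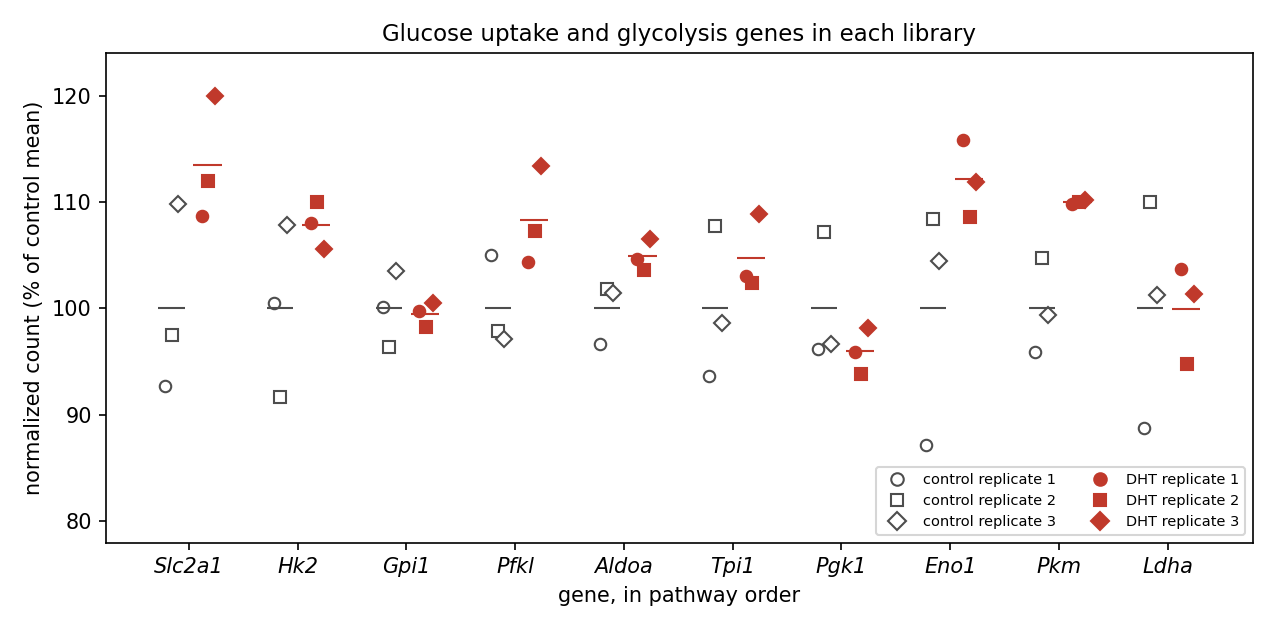
Normalized counts of the 10 members in each of the 6 libraries, as a percent of the gene's control mean (vertical axis, from 78% so that small differences can be seen), with genes in pathway order. Open symbols are control and filled red symbols DHT, the shape gives the replicate number, which pairs nothing, and lines are group means. Only for Aldoa, Eno1 and Pkm do all 3 DHT libraries lie above all 3 control libraries, and control replicate 1 is the lowest library for 6 of the 10 genes.

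Glucose enters the cell through facilitative transporters and is trapped by phosphorylation. Slc2a1 (ENSMUSG00000028645, chr4:119108711-119137983, plus strand, GRCm38), the widely expressed transporter, had normalized counts of 1113, 1170.0 and 1318 in the control libraries and 1304, 1344 and 1439.8 in the DHT libraries. The highest control library lay above the lowest DHT library. With all 6 libraries its difference was the largest of the 10, at 13.7% (95% interval 2.00 to 26.7%) or 0.19 on the log2 scale (SE 0.07, adjusted p = 0.132). Without control replicate 3 it was 0.25 with an adjusted p of 0.0237, and without control replicate 1 or DHT replicate 3 it was 0.13 or 0.14 (adjusted p = 0.317 and 0.348). It ranked below Pfkl without control replicate 1, below Eno1 and Pkm without control replicate 2 and below Eno1 without DHT replicate 3, and over all alternatives the adjusted p ran from 0.0237 to 0.348. Slc2a3 (GLUT3), a transporter of higher affinity, was counted at 156, 134 and 115 in control and 128, 146 and 150.2 in DHT libraries, which overlapped (log2 fold change 0.08, SE 0.14, adjusted p = 0.794). Of the pair, Slc2a1 made up 91.4% ± 1.84 (SD, n = 3) of the counts per kilobase of transcript in control and 92.1% ± 0.368 in DHT libraries (exact permutation test, two-sided, p = 0.7).

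Hk2 (ENSMUSG00000000628, chr6:82725025-82774454, minus strand), the inducible hexokinase that phosphorylates glucose at the mitochondrial surface, had counts of 3172, 2892 and 3403 in control and 3408, 3470.1 and 3332 in DHT libraries. The DHT libraries lay together near the highest control library, with a log2 fold change of 0.11 (SE 0.06, adjusted p = 0.263), which was 0.05 without control replicate 2. Hk1, the constitutive hexokinase, had 3309, 3406 and 3432 in control and 3583, 3804 and 3869 in DHT libraries, with no overlap. Hk1 rose by 10.9% (log2 fold change 0.15, SE 0.04, adjusted p = 0.0497). This call sat at the threshold. It was lost without control replicate 1, 2 or 3 (adjusted p = 0.128, 0.102 and 0.0563) and without DHT replicate 2 or 3 (0.179 and 0.172), while over all alternatives the adjusted p ran from 0.0371 to 0.179. Per kilobase of the longest protein-coding transcript Hk1 made up 58.0% ± 1.98 of their sum in control and 58.7% ± 1.21 in DHT libraries. The order of the pair turned with exons merged over all transcripts (396 for Hk1 and 529 for Hk2 per kilobase in control). The share of Hk2 overlapped between the groups (p = 0.7, exact permutation test).

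The next enzymes rearrange and split the sugar. Gpi1 (ENSMUSG00000036427, chr7:34201330-34230336, minus strand) interconverts glucose 6-phosphate and fructose 6-phosphate, the branch point shared with the pentose phosphate pathway. Its counts were 13170.4, 12679 and 13613 in control and 13119, 12928 and 13223 in DHT libraries. All DHT values fell inside the control range, and Gpi1 was the steadiest member, with a ratio of highest to lowest library of 1.07. Its log2 fold change was -0.01 (SE 0.04, 95% interval -0.09 to 0.08, adjusted p = 0.939).

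Pfkl (ENSMUSG00000020277, chr10:77986947-78010083, minus strand) is the liver-type subunit of phosphofructokinase, which catalyses the committed and most tightly controlled step. It had counts of 2732, 2545 and 2525 in control and 2715, 2790.5 and 2948 in DHT libraries. The highest control library lay just above the lowest DHT library, and the difference was 8.35% or 0.12 on the log2 scale (SE 0.05, adjusted p = 0.170). The muscle-type Pfkm (1631, 1419 and 1525 in control, 1474, 1585 and 1635 in DHT) and the platelet-type Pfkp (1952, 2683 and 2492 in control, 2812, 2654 and 2637 in DHT) overlapped between groups. Neither passed the test, with log2 fold changes of 0.04 (SE 0.06, adjusted p = 0.759) and 0.20 (SE 0.10, adjusted p = 0.261), and that of Pfkp was 0.06 without control replicate 1. Per kilobase of transcript Pfkl made up 38.8% ± 2.27 of the sum of the 3 subunits in control and 38.7% ± 0.850 in DHT libraries (p = 1, exact permutation test). Their levels depended on the length used, with control means of 697, 529.6 and 573 for Pfkl, Pfkm and Pfkp by transcript length and 389.6, 457 and 177 by merged exonic length. Pfkfb4, one of the bifunctional enzymes that make and break fructose 2,6-bisphosphate, the activator of phosphofructokinase, rose by 27.7%. It had 354, 337 and 391 in control and 451, 466 and 464 in DHT libraries without overlap (log2 fold change 0.35, SE 0.08, adjusted p = 0.0201). The Pfkfb4 call was lost without control replicate 1 or 2 (adjusted p = 0.0515 and 0.0628) and without DHT replicate 2 or 3 (0.0852 and 0.0800), in a range of 0.00834 to 0.0852 over all alternatives.

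Aldoa (ENSMUSG00000030695, chr7:126795234-126800751, minus strand), the main aldolase, which cleaves fructose 1,6-bisphosphate, had counts of 29253, 30814 and 30704 in control and 31673, 31352 and 32242 in DHT libraries. All 3 DHT values exceeded all 3 control values, by a mean of 4.98% (log2 fold change 0.07, SE 0.04, adjusted p = 0.310), and by 0.05 on the log2 scale without control replicate 1. Such complete separation upward was seen in 15.9% of all genes tested and downward in 14.7%. It held for 3 of the 10 members upward, Aldoa, Eno1 and Pkm, and for 0 downward. Aldoc, the aldolase known from brain, stood far lower and rose by 85.9%, from 145, 204 and 278 in control to 379.7, 362 and 387 in DHT libraries (log2 fold change 0.89, SE 0.20, adjusted p = 0.0201). Its control libraries were widely spread and its DHT libraries were not. The Aldoc call was lost without control replicate 2 (adjusted p = 0.0576) and without DHT replicate 1, 2 or 3 (0.0572, 0.0608 and 0.0837) and without the intensity trend, in a range of 0.00105 to 0.1 over all alternatives. Aldoc made up 0.381% ± 0.113 of the pair per kilobase of transcript in control and 0.655% ± 0.0143 in DHT libraries. The share of Aldoa was lower in all 3 DHT libraries, by 0.274 percentage points (0.489 without division by length and 0.437 with merged exonic length), at the smallest exact permutation p that 3 against 3 libraries allow (p = 0.1, adjusted over 6 shares 0.6).

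Tpi1 (ENSMUSG00000023456, chr6:124810586-124814296, minus strand) interconverts the triose phosphates that aldolase releases. Its counts were 8555, 9843 and 9018 in control and 9419, 9359 and 9949 in DHT libraries. The DHT libraries overlapped the upper part of the control range (log2 fold change 0.07, SE 0.05, adjusted p = 0.474). That difference was 0.02 without control replicate 1, 0.04 without DHT replicate 3 and 0.12 without control replicate 2.

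The lower pathway recovers ATP. Gapdh, the dehydrogenase at its entry, was counted at 51708, 58114 and 56419 in control and 53504, 54137 and 53423 in DHT libraries, with the DHT libraries inside the control range (log2 fold change -0.04, SE 0.05, adjusted p = 0.652). The Gapdh difference was -0.09 without control replicate 1, -0.0087 without control replicate 2 and -0.11 under quantile normalization. Pgk1 (ENSMUSG00000062070, chrX:106187100-106203699, plus strand), the first kinase of the pathway to yield ATP, had 11165, 12447 and 11218 in control and 11136, 10896 and 11396 in DHT libraries. With all 6 libraries it had the most negative difference of the 10, at -0.06 on the log2 scale (SE 0.05, 95% interval -0.17 to 0.05, adjusted p = 0.511), with overlapping groups. Without control replicate 2 it was -0.0065, and that of Gpi1 was then lower. Pgam1, the mutase that follows, had 7526, 8071 and 7813 in control and 8323, 8252 and 8724 in DHT libraries. These did not overlap, yet the difference of 0.11 (SE 0.04) had an adjusted p of 0.119.

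Eno1 (ENSMUSG00000063524, chr4:150236721-150248879, plus strand), the ubiquitous enolase, had counts of 33832, 42094 and 40545 in control and 44982, 42166 and 43449 in DHT libraries. The groups were separated by a narrow gap between control replicate 2 and DHT replicate 2, and control replicate 1 lay well below the rest. The difference was 12.6% (95% interval -0.159 to 27.0%, log2 fold change 0.17, SE 0.08, adjusted p = 0.205). Without control replicate 1 it was 0.075 on the log2 scale (adjusted p = 0.395), and under quantile normalization it was 0.10 (adjusted p = 0.488). The neuronal Eno2 (149, 136 and 145 in control, 139.9, 133 and 114 in DHT) and the muscle Eno3 (409, 487 and 445 in control, 449, 511 and 501 in DHT) did not pass the test (log2 fold changes -0.16 and 0.12, adjusted p = 0.484 and 0.419). Without DHT replicate 3 that of Eno2 was -0.07, and that of Eno3 was 0.06 without control replicate 1 and 0.19 without control replicate 2. Eno1 held 98.3% ± 0.102 of the 3 enolases per kilobase of transcript in control and 98.4% ± 0.135 in DHT libraries (p = 0.5, exact permutation test).

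Pkm (ENSMUSG00000032294, chr9:59656368-59679375, plus strand) encodes the pyruvate kinase of most tissues, whose spliced forms PKM1 and PKM2 gene counts do not tell apart. It had counts of 41727, 45580.4 and 43262 in control and 47794, 47886 and 47944 in DHT libraries. The 3 DHT libraries agreed to within a coefficient of variation of 0.158%, above every control library. The difference was 10.1% (95% interval 2.59 to 18.1%) or 0.14 on the log2 scale (SE 0.04), and its adjusted p of 0.0865 was the lowest of the 10. Without control replicate 2, the highest control, it was 0.17 with an adjusted p of 0.0498, in a range of 0.0498 to 0.243 over all alternatives. Under quantile normalization it was 0.08 (adjusted p = 0.226).

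Ldha (ENSMUSG00000063229, chr7:46841475-46855627, plus strand), the lactate dehydrogenase subunit that favours lactate formation, had counts of 14939.5, 18515 and 17043 in control and 17453, 15961 and 17062 in DHT libraries. The DHT libraries fell inside the control range, and the log2 fold change was 0.00 with an SE of 0.07 (95% interval -0.16 to 0.17, adjusted p = 0.979). Ldhb, the subunit suited to use lactate, had 3312, 2755 and 2862 in control and 2524, 2793 and 2938 in DHT libraries (log2 fold change -0.11, SE 0.08, adjusted p = 0.418), a difference of -0.03 without control replicate 1 and -0.05 without DHT replicate 1. Ldha made up 80.1% ± 3.31 of the pair per kilobase of transcript in control and 81.4% ± 1.57 in DHT libraries (p = 0.7, exact permutation test). Over the 6 steps with isozymes, the adjusted p of the shares ran from 0.6 to 1. No share could have passed at 0.05 with 3 against 3 libraries, so these values do not show that the shares stayed the same.

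**Figure D2:**
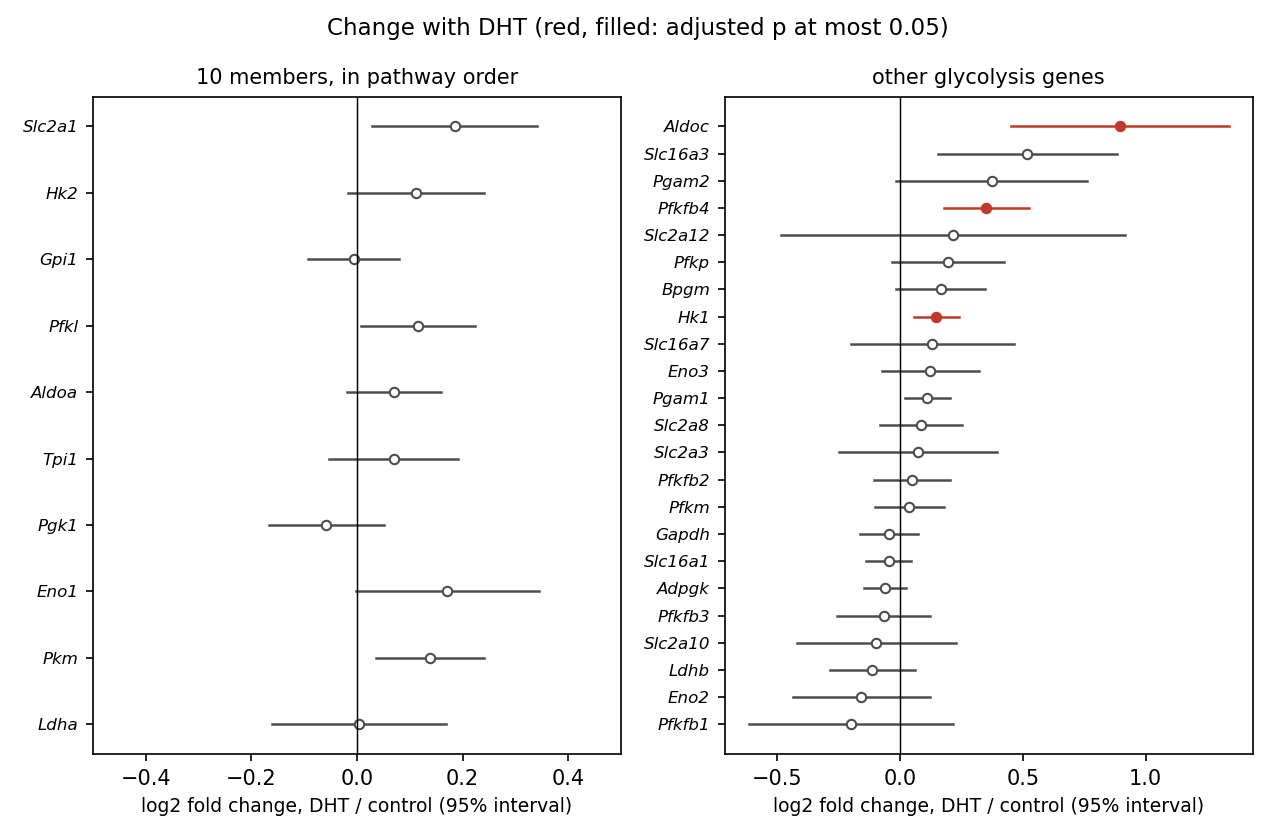
Log2 fold changes of DHT over control (horizontal axis) with their 95% intervals for the 10 members, left, and the other glycolysis genes, right, on a wider scale. Red filled points passed the test, which 0 of the 10 members and 3 of the others (Aldoc, Pfkfb4 and Hk1) did.

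The other glycolysis genes, a list of 30 further transporters, isozymes, regulators of phosphofructokinase and lactate carriers of which 24 were measured, were read in the same way. Of these, 3 (Hk1, Pfkfb4 and Aldoc) were higher with DHT, 0 were lower and 21 did not pass the limma test, with 5 higher and 0 lower at an unadjusted p of at most 0.05. Their median log2 fold change was 0.08. The share that passed, 12.5%, stands beside 11.2% of all genes that passed in either direction (6.52% higher and 4.66% lower). Slc2a8, Slc2a10 and Slc2a12, further transporters, did not pass, with log2 fold changes of 0.09, -0.10 and 0.22 (adjusted p = 0.523, 0.732 and 0.716).

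Levels along the pathway were unequal. Per kilobase of transcript, Aldoa (19533 in the control mean), Eno1 (19153) and Pkm (17896) were the most abundant members, and neighbours among these 3 overlapped between control libraries. Ldha (9274) followed, then Pgk1 (6362) and Tpi1 (5687), which overlapped, and Gpi1 (4561). The entry and control steps were far lower, with Pfkl at 697, Hk2 at 572 and Slc2a1 at 368, each separated from its neighbours. By merged exonic length, an alternative added after seeing the data, Pfkl (389.6) ranked below Hk2 (529), Ldha (5085) below Pgk1 (5174) and Eno1 (7218) below Pkm (8703), while Slc2a1, Hk2 and Pfkl were still the lowest 3 members. Gapdh, at 39024 counts per kilobase, stood above all of them. The 10 members took 0.419% of the reads in control replicate 1, the lowest share, and 0.444 to 0.465% in the other two controls, against 0.452 to 0.470% in the DHT libraries.

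**Figure D3:**
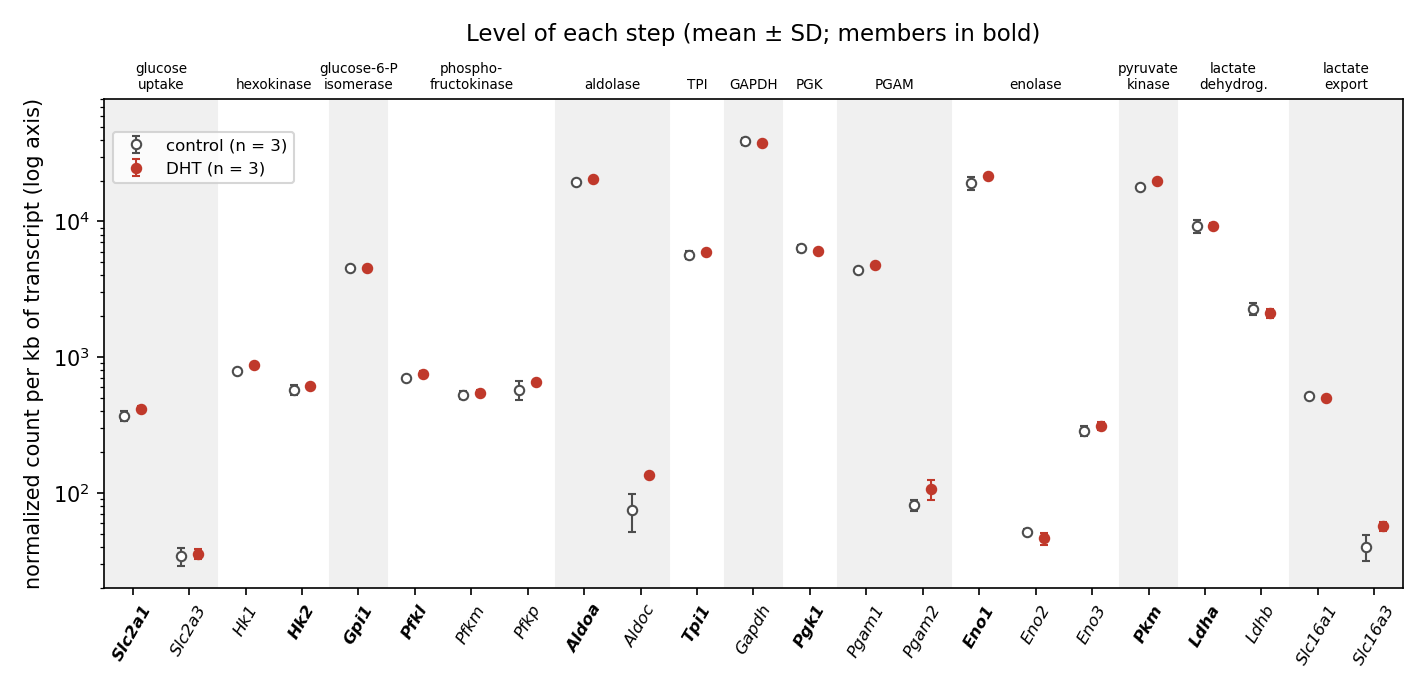
Normalized counts per kilobase of the longest protein-coding transcript (vertical log axis) for each step from glucose uptake to lactate export, as means with SD over the 3 libraries of each group (open, control; red, DHT), with members in bold. Slc2a1, Hk1, Hk2 and the phosphofructokinases lie between 368 and 877 counts per kilobase, and Aldoa, Gapdh, Eno1 and Pkm at 17896 or more.

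The spread of the members was itself uneven. Coefficients of variation ran from 2.88% (Aldoa) to 11.3% (Eno1) in control and from 0.158% (Pkm) to 5.11% (Slc2a1) in DHT libraries. Control replicate 1 was the lowest of the 6 libraries for 6 of the 10 members, and DHT replicate 3 the highest for 5. The mean of the members' centred log2 values was -0.10, -0.01 and -0.01 in control replicates 1, 2 and 3 and 0.04, 0.02 and 0.07 in the DHT libraries. Without control replicate 1 the median log2 fold change of the members was 0.06, and without DHT replicate 2, the library with few oocyte transcripts, it was 0.09. None of the 10 passed the test in either case. Among 11534 genes outside all lists with a mean of at least 100, the 5 whose log2 values followed that mean most closely over the 6 libraries were Ppat (ENSMUSG00000029246), which opens purine synthesis, Larp1b, Zfp277, Umps, which completes the synthesis of UMP, and Mfsd14a, with Pearson's r of 0.991 to 0.996. These genes were picked for following that mean, so their difference between the groups is no separate result.

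Routes that branch from glycolysis were read beside it. Among 7 genes of the pentose phosphate pathway, which draws on glucose 6-phosphate to make NADPH and ribose, 2 fell and 0 rose by the limma test, with 2 and 1 at an unadjusted p of at most 0.05. These 2 are 28.6% of the list, where 4.66% of all genes fell and 6.52% rose. G6pdx, the rate-limiting first enzyme, had 10072.5, 8921 and 9449 in control and 7797, 7403 and 7462 in DHT libraries, and fell by 0.33 on the log2 scale (SE 0.05, adjusted p = 0.00314). Pgd, the other dehydrogenase of the pathway that makes NADPH, had 20842.5, 15829 and 18385 in control and 12429.5, 13538 and 13609.9 in DHT libraries, and fell by 0.47 (SE 0.09, adjusted p = 0.00978). In both genes every DHT library lay below every control library. The median of the 7 was 0.00.

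Among 14 genes that carry pyruvate into the mitochondrion or regulate its use, 1 rose and 1 fell, with a median of -0.01. These are 14.3% of the list, near the 11.2% of all genes that passed in either direction (6.52% higher and 4.66% lower). Pcx, the carboxylase that turns pyruvate into oxaloacetate, had 859.8, 736 and 882 in control and 616, 621 and 568 in DHT libraries (log2 fold change -0.45, SE 0.08, adjusted p = 0.00703). Dld, the lipoamide dehydrogenase shared by pyruvate dehydrogenase and related complexes, rose from 6044, 6011 and 5974 to 6606, 6376 and 6866 (log2 fold change 0.14, SE 0.04, adjusted p = 0.0480). The Dld call was lost whichever library was left out, with adjusted p from 0.0703 without DHT replicate 2 to 0.165 without DHT replicate 3.

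The factors that control these genes, and their other targets, were read beside them. Of 14 regulators, Hif1a and Egln1 rose and 0 fell by the limma test (2 and 0 also without adjustment), with a median log2 fold change of 0.02. They make up 14.3% of the list, beside 6.52% of all genes that rose. Hif1a transcripts were counted at 23092, 24509 and 24801 in control and 30265, 29369.6 and 29451 in DHT libraries, 23.1% higher without overlap (log2 fold change 0.30, SE 0.04, adjusted p = 0.00210). These are transcript counts, and HIF-1 activity is in general set largely by the stability of its protein. By quantitative PCR the study itself saw no effect of DHT on Hif1a mRNA in such cultures. It reported more HIF1α protein with DHT, with its degradation unchanged. Why the transcript measures differ was not tested. Egln1, the prolyl hydroxylase that marks that protein for decay, had 3408, 3565 and 3409 in control and 3760, 3762 and 4000.5 in DHT libraries (log2 fold change 0.15, SE 0.04, adjusted p = 0.0476), a call lost whichever library was left out (adjusted p from 0.0587 without control replicate 2 to 0.164 without DHT replicate 3).

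Of 14 hypoxia targets outside glycolysis, 4 rose and 1 fell (35.7% in all), with a median of 0.18. Of all genes tested, 6.52% rose and 4.66% fell (11.2% in all). Bnip3 had 2735, 2645 and 2838 in control and 3613, 3622 and 3795 in DHT libraries (log2 fold change 0.42, SE 0.04, adjusted p = 0.000401). Ndrg1, a stress-responsive gene, had 978, 1162 and 982 in control and 1604, 1681 and 1892.5 in DHT libraries (log2 fold change 0.73, SE 0.08, adjusted p = 0.000749). Adm, the gene of the vasodilator peptide adrenomedullin, rose from 275, 312 and 292 to 415, 391 and 471 (log2 fold change 0.53, SE 0.09, adjusted p = 0.00708). In Bnip3 and Ndrg1 the gap between the groups was wider than the range within either group, and in Adm the groups were also apart. Bhlhe40, a transcriptional repressor, rose from 2064, 2513 and 3847 to 4734, 4668 and 4561 (log2 fold change 0.78, SE 0.18, adjusted p = 0.0249), and was lost without control replicate 2 (adjusted p = 0.0851) and without DHT replicate 1, 2 or 3 (0.0691, 0.0798 and 0.0861) and without the intensity trend (0.130). Kdm3a, a histone H3K9 demethylase, fell from 5143, 5026 and 5542 to 4537, 4371 and 4403 (log2 fold change -0.24, SE 0.04, adjusted p = 0.00924). The other 9 genes of this list did not pass. Whether the lists differ was not tested. The letters ACGTG stood in windows of 9 of the 11 hypoxia targets that had one (81.8%), of 12 of 25 other glycolysis genes (48%) and of 6 of the 10 members. Among the genes that passed the test in these lists, windows of Bnip3, Hk1 and Aldoc held them, those of Adm, Kdm3a and Pfkfb4 did not, and Ndrg1 and Bhlhe40 were not matched to a window.

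**Figure D4:**
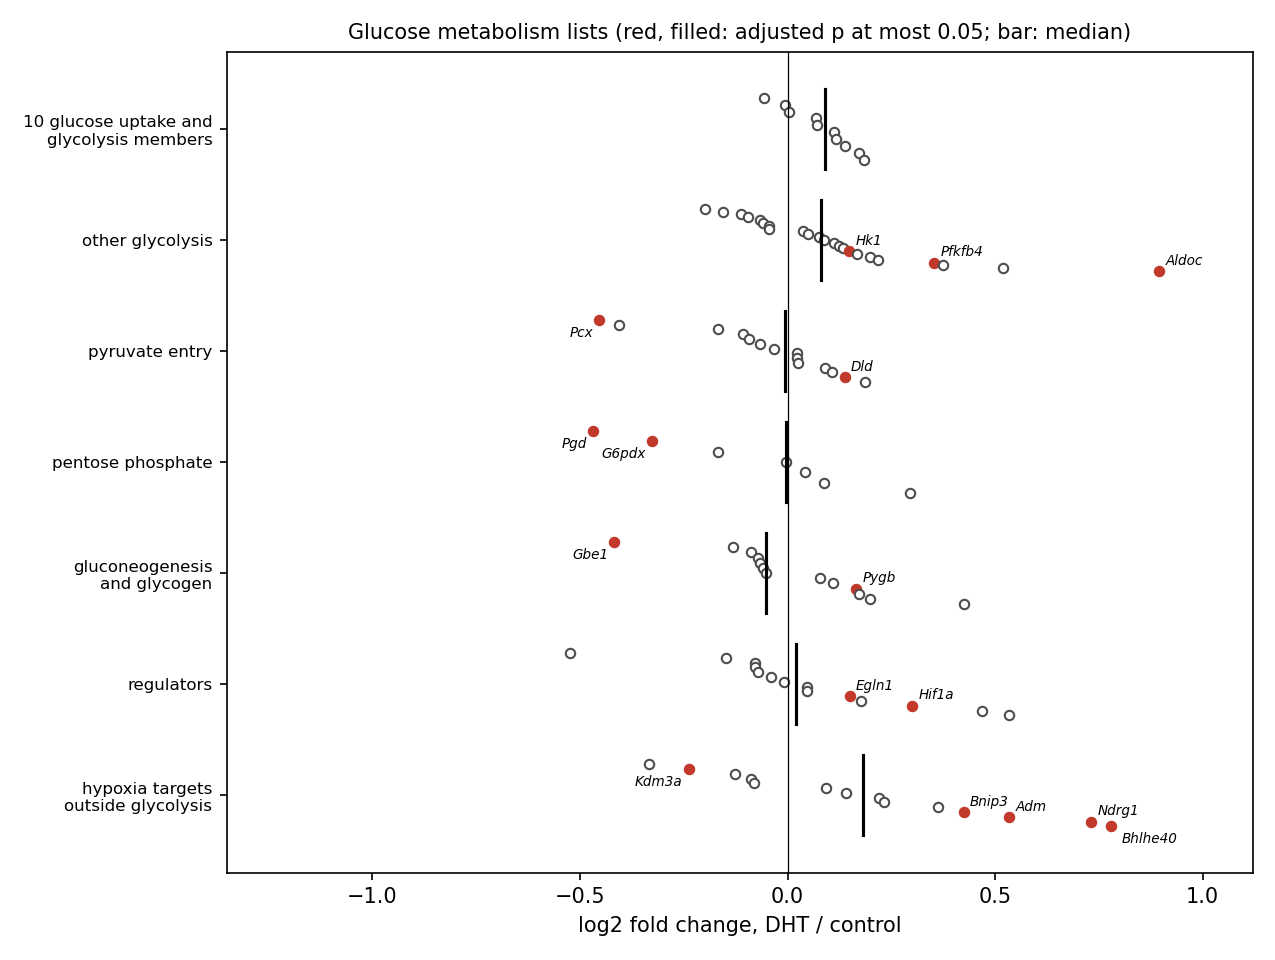
Log2 fold changes of DHT over control (horizontal axis) for the 10 members and for genes of 6 lists of glucose metabolism and its regulation, 1 point a gene, with the median of each list as a black bar. Red filled points passed the test and are named, and they number 0 in the members, 3 in other glycolysis, 2 each in pyruvate entry, pentose phosphate, gluconeogenesis and glycogen, and regulators, and 5 in hypoxia targets.

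Some counts could hold reads of other genes, or miss reads that fit other genes as well. Gpi1, Tpi1, Pgk1, Eno1, Pkm and Ldha each have 1 to 4 near-identical genes elsewhere, found by alignment of at least 150 bases at 95% identity, and Gapdh has 79. Only uniquely mapped reads were counted, so reads that fit a gene and a near copy equally well were left out. The near-identical genes that were measured had means of at most 69.3, that of Gm6560 beside Pkm, also from uniquely mapped reads. How far this lowered the counts and levels was not tested. Slc2a1, Gpi1, Aldoa and Tpi1 share 25 to 741 exonic bases with a gene on the other strand, and Pkm 767 with Gm49759 on its own strand. Reads from the bases shared on the other strand cannot be told apart if counting ignored strand, and those shared on the same strand cannot be told apart either way.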

How the data were processed

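RNA-seq was read for 6 libraries, 3 control and 3 DHT, grouped by the treatment characteristic of the labels. The authors trimmed reads with Trimmomatic 0.36, mapped them to GRCm38 with STAR 2.5.2b and assigned uniquely mapped reads to exons with featureCounts of Subread 1.5.2. They then scaled each library by its DESeq2 size factor, and the scaled signal is what the authors deposited. In each library 100% of the 16300 values were multiples of a common step (tolerance 0.01), taken as 1 read, from which the reads on genes were summed. Counting error is small at these depths, and the spread between 3 libraries limits the precision. Columns of the authors' own fold changes and p-values were not used, and a second table of 190 genes repeated values of the first and was not used.

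Values were tested as log2(value + 1), a scale that understates the change of low genes, with limma 3.58.1 (R 4.3.3), using a mean-variance trend on intensity and no replicate block. Genes averaging at least 10 entered the fit, and p-values were adjusted by Benjamini-Hochberg over all 16292 genes. Isozyme shares used the two-sided exact permutation test in scipy 1.17.1. Count tests had been planned as alternatives and were not run, because a second search for the value of 1 read did not settle on that step in 3 of the 6 libraries. The printed read totals rest on that step. Counts per kilobase used the longest protein-coding transcript of GENCODE vM21, chosen after the lengths were seen because merged exons include retained introns. Promoter windows came from RefSeq (GRCm38.p6). Alternatives were other pseudocounts, filters and scalings, no trend, the replicate block and each library left out. The limma script was tested on simulated data.

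The members and lists were chosen with earlier results of these data known. Named are the members, the genes of the other lists that passed the test, isozymes of a member's step, Gapdh, Pgam1 and Hif1a whatever their value, and the 5 genes most like the members. A value that this rule calls for is not reported here, though counts and medians include it.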

Additional observations from a re-analysis of the deposited data

How the results depend on the processing

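Over 14 alternatives per gene, the members passing the test numbered 0 to 1 when a library was left out, with Pkm passing without control replicate 2 and Slc2a1 without control replicate 3, and 0 under every other setting. Other glycolysis genes passing numbered 1 without the intensity trend (Pfkfb4), 1 with the replicate block (Aldoc) and 0 to 3 when a library was left out, against 3. All genes passing numbered 804 without the trend, 990 with the replicate block and 931 to 2094 when a library was left out, against 1823. The same-numbered libraries deviated from their group means with correlations of 0.0058, 0.067 and -0.24, so the numbers were not taken to pair them.

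Differences near 0 changed sign. When a library was left out, the log2 fold change ran from -0.0328 to 0.0185 for Gpi1, from -0.0793 to 0.0754 for Ldha, which was -0.0119 under quantile normalization, from -0.0346 to 0.186 for Slc2a3 and from -0.0127 to 0.0875 for Pfkm. Differences of shares, in percentage points, then ran from -0.221 to 1.61 for Slc2a1, from -1.74 to 0.135 for Hk2, from -0.695 to 1.28 for Pfkl and from -0.507 to 2.70 for Ldha. With merged exonic length, an alternative added after seeing the data, that of Pfkl was 0.587. The cause was not tested.

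Hif1a, G6pdx, Adm, Bnip3 and Ndrg1 passed under all 14 alternatives, and Pcx, Pgd, Gbe1 and Kdm3a under 13, losing the call without the trend (adjusted p = 0.0505, 0.0823, 0.0863 and 0.0714). Hk1, Dld, Egln1 and Pygb passed under 5 alternatives and Pfkfb4, Aldoc and Bhlhe40 under 9. The edgeR and DESeq2 tests were not run. The lowest normalized count of a member in any library was 1113, and 3 libraries a group limit what can be called.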

Other observations

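Glycogen and gluconeogenesis share their sugar phosphates with glycolysis. Of 16 listed genes, 13 were measured, and 1 rose and 1 fell, with a median log2 fold change of -0.05. These are 15.4% of those measured, beside 11.2% of all genes tested that passed in either direction (6.52% higher and 4.66% lower). Gbe1, the glycogen branching enzyme, had normalized counts of 4008, 3129 and 3560.1 in control and 2515, 2715 and 2746 in DHT libraries, with every DHT library below every control library (log2 fold change -0.42, SE 0.08, adjusted p = 0.0115). Pygb, the brain-type glycogen phosphorylase, had 3305, 3665 and 3603 in control and 3887, 3975 and 3979 in DHT libraries (log2 fold change 0.16, SE 0.05, adjusted p = 0.0497). The Pygb call was lost without control replicate 1 or 2 (adjusted p = 0.110 and 0.0504) and without DHT replicate 1, 2 or 3 (0.0938, 0.163 and 0.152), in a range of 0.0431 to 0.163 over all alternatives.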
